A study of Mus musculus with 6 samples.

Results

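The genes described are the UDP-glucuronosyltransferases (UGTs) of mouse liver, 9 genes chosen by name: Ugt1a1, Ugt2a3, Ugt2b1, Ugt2b5, Ugt2b34, Ugt2b35, Ugt2b36, Ugt2b38 and Ugt3a2. Their measurements are all probe sets that the array platform assigns to exactly 1 of these symbols. Of the 9 genes, 8 had such a probe set, Ugt2b34 having 2 and the other 7 having 1 each, so that 9 probe sets of 45101 and 8 genes of 18193 with a probe set of their own represent the family. Ugt1a1 had none, because its 3 probe sets are shared by 8 Ugt1a genes. RNA was measured on oligonucleotide arrays in whole liver of female mice on a C57 background, with 3 arrays for SRC-2 null and 3 for wild-type liver; the mice of both genotypes were ovariectomized at 6 weeks of age and killed 2 weeks later. Ncoa2 encodes SRC-2, a coactivator that nuclear receptors recruit to their target genes. The question put to these arrays is how UGT transcript levels in liver differ without it. How the SRC-2 null allele was made is not described in the labels, and both genotypes had been ovariectomized, so neither group is an intact female.

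UGTs sit in the membrane of the endoplasmic reticulum and join glucuronic acid, taken from UDP-glucuronic acid, to bilirubin, steroids, bile acids and drugs, which makes them water-soluble and ready for export into bile or blood. UGT1A1 is the enzyme of bilirubin, and the UGT1A enzymes are made from a single locus by joining alternative first exons to common later exons. The UGT2B enzymes act on steroids and many drugs, and their genes lie side by side with those of UGT2A enzymes in a cluster. UGT3A enzymes belong to the same superfamily but use other UDP-sugars. In liver, nuclear receptors such as PXR and CAR and the hepatocyte factor HNF1 are known regulators of UGT genes.

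The promoters of the Ugt2b genes are shown because both genes that changed lie in their cluster, beside relatives that did not pass the test. Of the 9 genes, 8 matched RefSeq's promoter table of build GRCm38.p6. The 120 bases before the annotated start are printed for 6 members and for Ugt2b37, a relative of the same cluster, 5′ to 3′ with the start at the right end. The positions are chr5:87424204-87424323 on the minus strand for Ugt2b38, chr5:87254789-87254908 on the minus strand for Ugt2b37, chr5:87140341-87140460 on the minus strand for Ugt2b5, chr5:87092556-87092675 on the minus strand for Ugt2b36, chr5:87000740-87000859 on the plus strand for Ugt2b35, chr5:86906938-86907057 on the minus strand for Ugt2b34 and chr5:86926504-86926623 on the minus strand for Ugt2b1. The longer run of capitals marks GTTANNNNTTAAC, which has the outer letters of the known HNF1 site, and the shorter run marks AGGTCA, the half-site read by many nuclear receptors.
Ugt2b38: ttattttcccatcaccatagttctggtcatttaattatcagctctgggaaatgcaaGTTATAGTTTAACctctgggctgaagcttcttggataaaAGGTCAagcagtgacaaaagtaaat
Ugt2b37: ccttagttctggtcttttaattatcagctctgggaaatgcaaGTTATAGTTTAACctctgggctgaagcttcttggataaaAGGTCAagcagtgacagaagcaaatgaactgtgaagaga
Ugt2b5: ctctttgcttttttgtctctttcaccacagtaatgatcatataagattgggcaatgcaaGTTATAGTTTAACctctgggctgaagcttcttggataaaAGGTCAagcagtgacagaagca
Ugt2b36: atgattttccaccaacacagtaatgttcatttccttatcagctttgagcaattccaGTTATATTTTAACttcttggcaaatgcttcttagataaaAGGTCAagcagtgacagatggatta
Ugt2b35: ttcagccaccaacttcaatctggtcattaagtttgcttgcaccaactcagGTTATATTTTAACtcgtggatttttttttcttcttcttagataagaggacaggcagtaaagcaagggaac
Ugt2b34: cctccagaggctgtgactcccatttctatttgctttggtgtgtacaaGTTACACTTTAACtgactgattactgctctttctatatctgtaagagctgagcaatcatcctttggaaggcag
Ugt2b1: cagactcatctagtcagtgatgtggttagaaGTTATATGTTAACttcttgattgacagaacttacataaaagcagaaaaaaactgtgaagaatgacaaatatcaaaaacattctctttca

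Both motifs were searched on both strands in the 250 bases before the start, their letters were chosen after these promoters had been read, and their marked matches do not overlap. The motif GTTANNNNTTAAC was found in all 7 Ugt2b promoters and in 56 of 32851 promoters of the same length (0.17%). The 7 are among the 56, and the letters were chosen after reading them, so the contrast is a description only. The motif began 64 bases before the start in Ugt2b38 and Ugt2b36, 61 in Ugt2b5, 78 in Ugt2b37, 70 in Ugt2b35, 73 in Ugt2b34 and 89 in Ugt2b1. The half-site AGGTCA stood in 5 of the 7, those of Ugt2b38, Ugt2b37, Ugt2b5, Ugt2b36 and Ugt2b35, the last one upstream of the printed stretch, against 4607 of all 32851 promoters (14.02%). Over the 250 bases, the promoter of Ugt2b38 was identical at 89.6% of positions to that of Ugt2b37 and at 84.8% to that of Ugt2b5. It shared 63.2% with Ugt2b36 and 53.2% with Ugt2b1. All comparisons that involve Ugt2b1 or Ugt2b34 lay between 50.8% and 53.6%, as did that of Ugt2b36 with Ugt2b35 (52.8%). The identity that unrelated promoters reach in such an alignment was not measured, so values near this range do not show likeness. Several of the 7 Ugt2b promoters are close copies, so their matches to either motif are not independent. A match describes these letters and does not show a bound site.

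Before the values, 3 facts about the arrays bear on all of them. Ncoa2 itself fell 5.41-fold in SRC-2 null liver (log2 fold change -2.44, limma adjusted p = 0.000353) by its brightest probe set, and 2 of its 4 tested probe sets were called when each was tested, both lower. Replicate 3 of both genotypes stood apart from replicates 1 and 2: across the tested genes its deviations from the group means correlated at 0.516 between the genotypes, while those of replicates 1 and 2 correlated at 0.18 and 0.203 with their namesakes. The labels do not say that replicates are separate animals, and the p-values therefore rest on the spread among these arrays alone, which may be technical. The tested gene is represented by its brightest probe set, and all values below are log2 expression values after robust multi-array averaging. Genes with a mean below 4.21, the median of all probe sets, were not tested, and limma's p-values were adjusted over all 11894 genes tested. A gene was called at an adjusted p under 0.05, as were 4.67% of all genes tested, 1.55% higher and 3.13% lower in SRC-2 null liver.

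In SRC-2 null liver Ugt2b38 was higher and Ugt2b1 fell 1.35-fold. The other 6 UGT genes with a probe set of their own did not pass the test. The difference of Ugt2b38 was 1.98-fold between group means when its wild-type values, all below the filter, were set at 4.21. This value makes no allowance for the spread among arrays. The log2 fold changes of the 6 lay between -0.19 and 0.04. All 8 genes were above the filter, but Ugt2b38 only through the SRC-2 null arrays, so its count among the tested genes is not independent of its difference. The 2 calls are set beside 4.67% of genes called overall as a description only. The members were chosen with earlier results of these data known. The median log2 fold change of the 8 genes was -0.09, beside 0.00 over all genes tested.

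**Figure D1:**
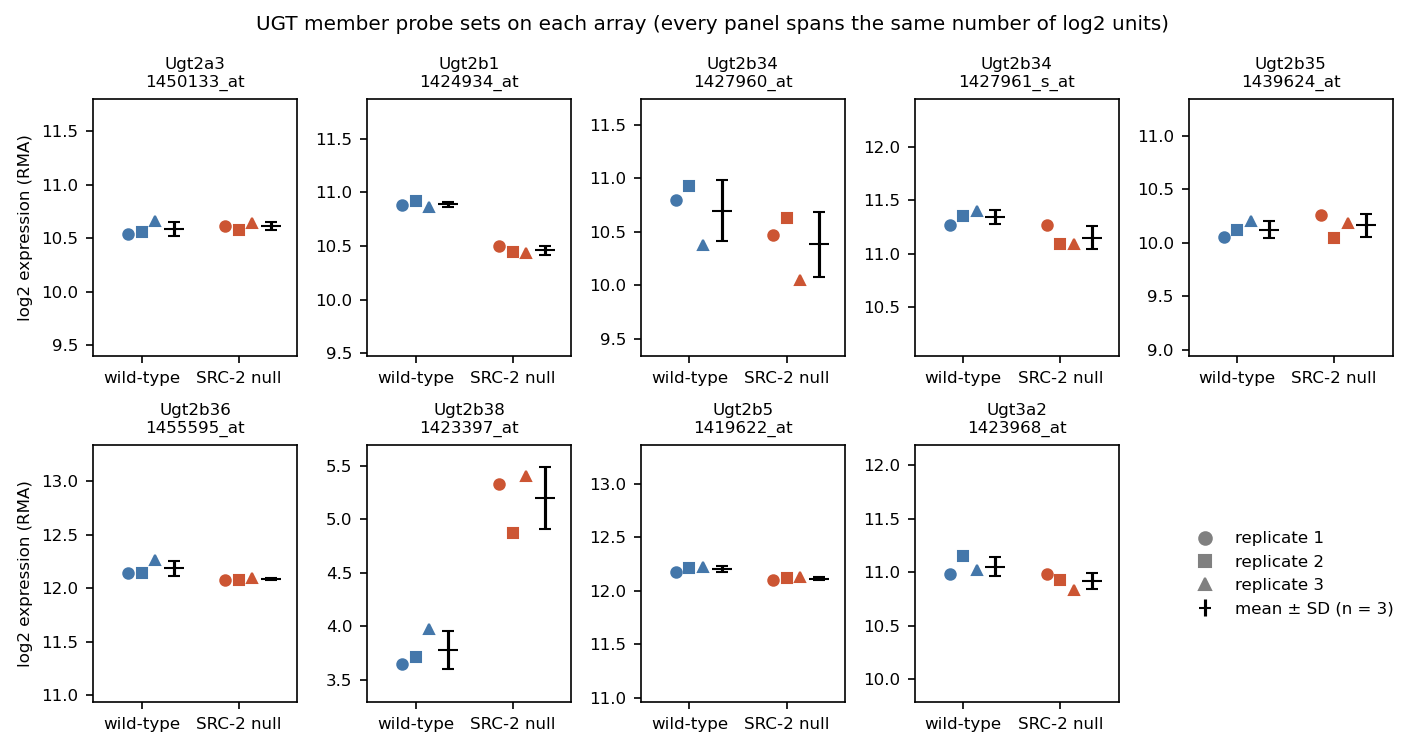
Log2 expression of the 9 UGT member probe sets on each array. Points are arrays (circle, square and triangle for replicates 1, 2 and 3), blue for wild-type and orange for SRC-2 null, with the mean and SD (n = 3) beside them, and every panel covers the same height. Ugt2b38 stands at 4.87 to 5.40 on the SRC-2 null arrays and at 3.64 to 3.98 on the wild-type arrays, and Ugt2b1 is the other gene with a clear gap, at 10.43 to 10.50 against 10.87 to 10.92.

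Ugt2b38, a UGT2B gene near the far end of the cluster, read 3.64, 3.71 and 3.98 on the wild-type arrays and 5.33, 4.87 and 5.40 on the SRC-2 null arrays. All 3 SRC-2 null values were above all 3 wild-type values, with a gap larger than the range within either group. The means were 3.78 ± 0.18 and 5.20 ± 0.29 (SD, n = 3 each), a fitted log2 fold change of 1.42 (SE 0.16, 95% interval 1.07 to 1.78, 2.68-fold on the values as measured, limma adjusted p = 0.00147). The call was kept whichever array was left out, with a log2 fold change between 1.32 and 1.59. The difference was 1.68, 1.16 and 1.42 within replicates 1, 2 and 3. The wild-type mean lay below 4.21, where values hold mostly background and folds are compressed, so a wild-type level cannot be read from it.

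Ugt2b1, also a UGT2B gene, read 10.88, 10.92 and 10.87 on the wild-type arrays and 10.50, 10.44 and 10.43 on the SRC-2 null arrays. The groups did not overlap, and each varied by less than 0.1 among its replicates. The means were 10.89 ± 0.03 and 10.46 ± 0.04 (SD, n = 3 each), a log2 fold change of -0.43 (SE 0.08, 95% interval -0.60 to -0.25, limma adjusted p = 0.0173). The difference was -0.38, -0.47 and -0.44 within replicates 1, 2 and 3. The size stayed between -0.45 and -0.41 whichever array was left out, but the call was lost, at limma adjusted p-values of 0.066 and 0.0964 when wild-type replicate 1 or 2 was removed, and of 0.0783 and 0.0539 when SRC-2 null replicate 2 or 3 was. When all probe sets of a single symbol were tested in place of genes, of which 2.41% were called, the limma adjusted p of Ugt2b1 was 0.0382, and it exceeded 0.05 with any of the 6 arrays removed, at 0.0837 to 0.191.

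Ugt2b5 and Ugt2b36, neighbours in the cluster, were close to level between the genotypes. Ugt2b5 read 12.17, 12.21 and 12.22 in wild-type and 12.10, 12.12 and 12.12 in SRC-2 null liver. The groups did not overlap, yet the log2 fold change was -0.09 (95% interval -0.26 to 0.08, limma adjusted p = 0.628). Ugt2b36 read 12.14, 12.15 and 12.26 against 12.08, 12.08 and 12.09, again without overlap, with a log2 fold change of -0.10 (95% interval -0.28 to 0.08, limma adjusted p = 0.593). Neither passed the test, and the intervals leave room for falls of up to 0.26 and 0.28 on the log2 scale. The promoter of Ugt2b5 is the member promoter most like that of Ugt2b38 among those printed above. The log2 fold changes of Ugt2b5 and Ugt2b38 were -0.09 and 1.42, and the part of their promoters in these values was not tested. Their probe sets can detect relatives, and probe sequences were not used here.

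Ugt2b34, the first gene of the cluster, was measured by 2 probe sets. The brighter, 1427961_s_at, whose suffix marks probes that can detect related transcripts, read 11.27, 11.36 and 11.40 in wild-type and 11.27, 11.09 and 11.09 in SRC-2 null liver. Its lowest wild-type and highest SRC-2 null values differed by 0.001, so the groups touch. The log2 fold change was -0.19 (95% interval -0.40 to 0.01, limma adjusted p = 0.324). The other, 1427960_at, read 10.79, 10.92 and 10.37 against 10.47, 10.63 and 10.05, with replicate 3 lowest in both genotypes and the groups overlapping. Within replicates 1, 2 and 3 its differences were -0.32, -0.29 and -0.33. Its log2 fold change over all arrays was -0.31 (SE 0.19, limma adjusted p = 0.548 among single-symbol probe sets), and neither probe set was called.

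Ugt2b35 and Ugt2a3 had the smallest differences of the members. Ugt2b35 read 10.05, 10.12 and 10.20 in wild-type and 10.26, 10.05 and 10.18 in SRC-2 null liver, with full overlap and a log2 fold change of 0.04 (95% interval -0.17 to 0.25, limma adjusted p = 0.884). Ugt2a3, a UGT2A gene beside Ugt2b38 in the cluster, read 10.54, 10.56 and 10.66 against 10.62, 10.58 and 10.65, with a log2 fold change of 0.03 (95% interval -0.16 to 0.21, limma adjusted p = 0.918). Ugt3a2, which lies outside the cluster, read 10.98, 11.15 and 11.02 against 10.98, 10.93 and 10.83. Its highest SRC-2 null and lowest wild-type values came from replicate 1 of each genotype and differed by 0.005, and its log2 fold change was -0.14 (95% interval -0.34 to 0.06, limma adjusted p = 0.494).

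Counted over genes, the values of the genotypes did not overlap for 6 of the 8 UGT genes, against 23.4% of all genes tested. Over the 9 probe sets of these genes the count was likewise 6, against 20.3% of all single-symbol probe sets. Ugt2b38 is in both counts. It was above the filter only through the SRC-2 null arrays, so its place in them is not independent of its difference. In 5 of the 8, Ugt2b1, Ugt2b34, Ugt2b36, Ugt2b5 and Ugt3a2, all SRC-2 null values were below all wild-type values, against 12.5% of all genes. Ugt2b34 and Ugt3a2 count only by narrow margins. Their lowest wild-type values were 11.2726 and 10.9823, and their highest SRC-2 null values 11.2717 and 10.9774. The dimmer probe set of Ugt2b34 overlapped between the genotypes. Of these 5, Ugt2b1 alone passed the test over all genes, and the other 4 differed by 0.09 to 0.19 on the log2 scale. These members were measured on the same arrays and are not replicates of each other.

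**Figure D2:**
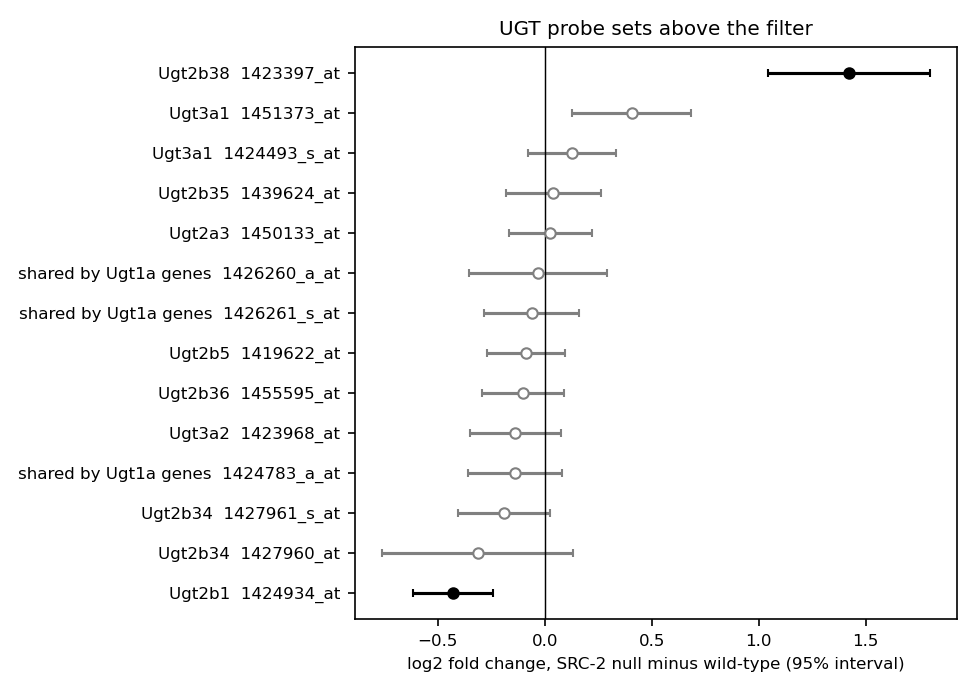
Log2 fold change (SRC-2 null minus wild-type) with its 95% interval for the 14 UGT probe sets above the filter, from a limma fit over all 22515 such probe sets, several-gene ones included; filled points have an adjusted p under 0.05. Ugt2b38 lies at 1.42 and Ugt2b1 at -0.43, and every other interval belongs to an open point.

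The Ugt1a genes could be read only together. Their 3 shared probe sets, to which the platform assigns 8 Ugt1a genes, Ugt1a1 among them, overlapped between the genotypes. Probe set 1426260_a_at read 13.01, 13.03 and 12.76 in wild-type and 13.06, 13.01 and 12.64 in SRC-2 null liver. Probe set 1426261_s_at read 12.09, 12.14 and 11.96 against 12.07, 12.05 and 11.90. Probe set 1424783_a_at read 12.18, 12.16 and 11.98 against 11.91, 12.04 and 11.95, where the highest SRC-2 null value exceeded the lowest wild-type value. Replicate 3 was the lowest array of both genotypes in the first pair of these probe sets. In a limma fit over all 22515 probe sets above the filter, of which 2.37% were called, their log2 fold changes were -0.03, -0.06 and -0.14, with adjusted p-values of 0.959, 0.856 and 0.603. The widest of the 3 intervals ran from -0.35 to 0.29, and a change of a single Ugt1a transcript, such as that of Ugt1a1, cannot be told from these values.

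Other genes of the superfamily were outside the 9 named. Ugt3a1, the neighbour of Ugt3a2, had 2 probe sets. The brighter read 8.57, 8.64 and 8.54 in wild-type and 8.78, 8.75 and 8.61 in SRC-2 null liver (log2 fold change 0.13, limma adjusted p = 0.52). The other, 1451373_at, read 7.573, 7.856 and 7.996 against 8.21, 8.19 and 8.24, without overlap, and its log2 fold change of 0.41 did not pass (limma adjusted p = 0.168 among single-symbol probe sets). Ugt2b37 read between 3.73 and 4.22 on all 6 arrays, below the filter, and was not tested. Its promoter is the closest relative of that of Ugt2b38 among those printed. Ugt8a, which makes galactosylceramide, and the probe set shared by Ugt2a1 and Ugt2a2 were also below the filter, with highest values of 3.49 and 3.34.

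Along chromosome 5, by the gene order of GRCm38.p6, the cluster runs Ugt2b34, Ugt2b1, Ugt2b35, Ugt2b36, Ugt2b5, Ugt2b37, Ugt2a3, Ugt2b38, Ugt2a1 and Ugt2a2. The genes that changed, Ugt2b1 and Ugt2b38, are separated by 5 protein-coding genes, of which 4 were tested and did not pass. Of the genes beside the cluster, Ythdc1 had a log2 fold change of 0.01 (limma adjusted p = 0.988). The sulfotransferase genes Sult1b1, Sult1d1 and Sult1e1 on the other side showed differences of 0.17, -0.18 and 0.39 on the log2 scale, none of which passed (limma adjusted p = 0.384, 0.582 and 0.247).

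**Figure D3:**
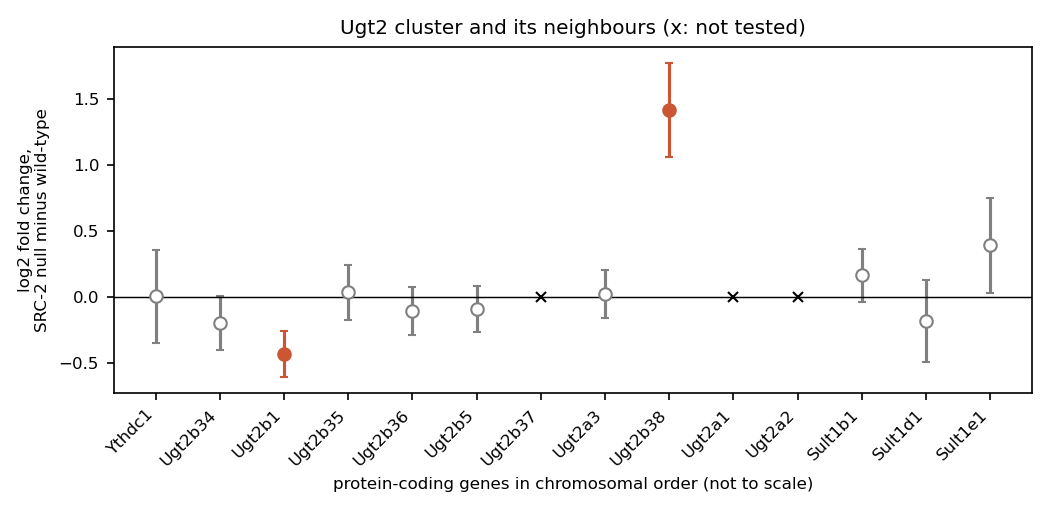
Log2 fold change (SRC-2 null minus wild-type, with its 95% interval) of the protein-coding genes of the Ugt2 cluster and its neighbours, in chromosomal order and not to scale; filled points have a limma adjusted p under 0.05, and crosses mark genes below the filter or without a probe set of their own, which have no value. Ugt2b1 (-0.43) and Ugt2b38 (1.42) are the filled points, with open points between them.

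None of the tested genes that supply UDP-glucuronic acid passed the test, and the gene that draws on it for vitamin C was lower. Counts in this and the following lists stand beside 4.67% of all tested genes called, 1.55% higher and 3.13% lower. Of 13 tested genes of supply and use, 1 fell and 12 did not pass in limma, 1 further gene being higher at an unadjusted p under 0.05, and the median log2 fold change was 0.03. Gulo, which encodes the last enzyme of vitamin C synthesis from glucuronic acid, fell 1.63-fold, from a mean of 10.49 to 9.79 (log2 fold change -0.71, SE 0.10, limma adjusted p = 0.00603), and kept its call whichever array was left out. Ugp2 and Ugdh, which make UDP-glucose and UDP-glucuronic acid, had log2 fold changes of 0.01 (95% interval -0.28 to 0.29) and 0.01 (95% interval -0.18 to 0.21). Slc35d1, a carrier of UDP-glucuronic acid into the endoplasmic reticulum, had -0.04, and Gusb, the glucuronidase that removes the sugar, had 0.16.

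Among 8 carriers of conjugates, 2 rose and 6 did not pass, with a median of -0.04. Abcg2, an export pump of conjugates, rose 1.51-fold (log2 fold change 0.60, SE 0.09, limma adjusted p = 0.00724) and kept its call without each array in turn. Slco1a4, an uptake carrier of organic anions, rose 1.28-fold (limma adjusted p = 0.0483), but no longer passed with any of the 6 arrays removed. Abcc2 and Abcc3, the pumps that carry glucuronides into bile and blood, had log2 fold changes of -0.05 and 0.02.

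Of 22 tested regulators of UGT genes, 1 rose and 21 did not pass, with a median of -0.05. At an unadjusted limma p under 0.05, 2 were higher and 3 lower. The 1 that passed after adjustment was Esr1, the oestrogen receptor gene, which rose 1.34-fold (limma adjusted p = 0.0423). It no longer passed with any of the 6 arrays removed, nor in either of its 2 probe sets when each was tested. Nr1i2 and Nr1i3, which encode PXR and CAR, had log2 fold changes of -0.29 (limma adjusted p = 0.0802) and -0.11 (limma adjusted p = 0.74). With replicate 3 as a batch term the adjusted p of Nr1i2 was 0.0399. Of 18 tested target genes of these and other xenobiotic sensors, 4 rose and 3 fell, with a median of -0.11. Gsta2, a glutathione transferase, and Alas1, the first enzyme of haem synthesis, rose 2.03-fold and 1.61-fold. The glutathione transferase gene Gstm3 and Cyp1a2, a cytochrome P450, fell 2.40-fold and 1.66-fold. Cyp1a2 lost its call without SRC-2 null replicate 1 or 2 (limma adjusted p of up to 0.0572), and over the 6 arrays left out in turn the list had 2 to 3 higher and 1 to 3 lower.

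The other conjugating families are given for comparison; no difference between families was tested. Of 11 tested genes of cytosolic sulfotransferases and their sulfate donor, 3 fell, and none rose in limma, 1 being higher at an unadjusted p under 0.05. Those that fell were Sult2a2, Sult3a1 and Sult5a1, at 5.42-fold, 2.84-fold and 1.76-fold, all kept whichever array was left out. Of 19 tested glutathione transferase genes, 3 rose, Gsta2, Gstp1 (1.40-fold) and Gstt2 (1.38-fold), and Gstm3 fell. At an unadjusted limma p under 0.05, 4 were higher and 4 lower. Gstp1 lost its call without any array but wild-type replicate 3, and Gstt2 without any but SRC-2 null replicate 1, so that 1 to 2 were higher with an array left out. With the replicate number as a block, or with replicate 3 as a batch term, 4 sulfotransferase genes fell, the further one being Sult1c2 (limma adjusted p = 0.0181 and 0.00997, against 0.0702 without either). The medians were -0.04 for the sulfotransferase list and 0.08 for the glutathione transferase list.

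Liver genes with a known sex bias are given beside these values, since conjugating enzymes of mouse liver are often sex-biased and all animals were female. Of 11 tested male-biased genes, 4 rose in limma (median log2 fold change 0.05), and none was lower even at an unadjusted p under 0.05. Cyp4a12a and Cyp2d9, cytochrome P450 genes, rose 3.85-fold and 2.57-fold, and Gstp1 and Egfr rose 1.40-fold and 1.30-fold. Egfr, a growth factor receptor gene, no longer passed with any of the 6 arrays removed, and the list then had 2 to 3 higher. Of 12 tested female-biased genes, 4 fell in limma (median -0.27), and none was higher even at an unadjusted p under 0.05. Sult3a1, Cyp17a1 and Acot3 fell 2.84-fold, 2.35-fold and 2.34-fold, and Cyp3a44, a cytochrome P450 gene, fell 1.47-fold. Cyp3a44 did not pass when SRC-2 null replicate 2 or either of wild-type replicates 1 and 2 was removed (limma adjusted p of up to 0.0777). Under the block and the batch term 5 fell, the further one being Cyp2b13 (limma adjusted p = 0.0121 and 0.00935, against 0.0678 without either). Some genes stand in more than 1 of these lists.

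**Figure D4:**
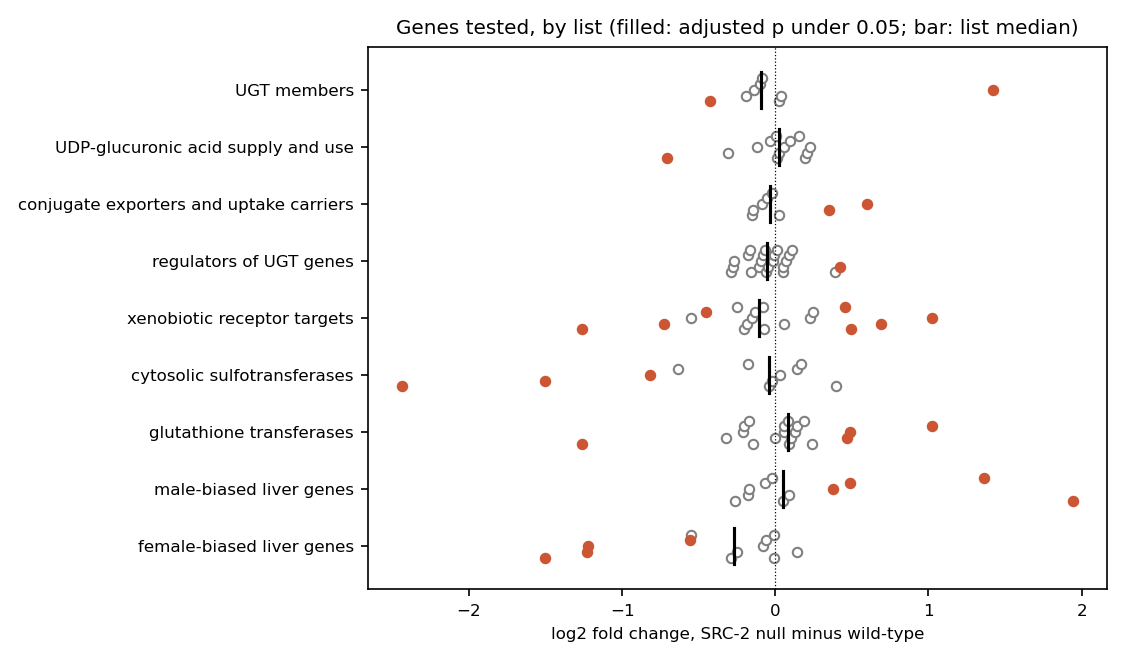
Log2 fold change (SRC-2 null minus wild-type) of the tested genes of each list, 1 point a gene, with filled points at a limma adjusted p under 0.05 and a bar at the list's median; vertical scatter within a list has no meaning. Among the UGT members Ugt2b38 (1.42) and Ugt2b1 (-0.43) are filled, and the remaining 6 lie between -0.19 and 0.04.

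General markers of hepatocytes, the cells in which liver UGTs are made, did not pass the test. They are few and bright and do not stand for all hepatocyte genes. Other liver genes named above, such as Cyp4a12a and Sult2a2, did change. Of 7 tested markers, Alb and Ttr among them, none was called in limma and none had an unadjusted p under 0.05, and their summed linear signal was 83438 to 85061 in wild-type and 81894 to 85274 in SRC-2 null liver. In whole liver, fewer cells of a type and less RNA per cell cannot be told apart. Some other cell types overlapped in summed signal. The neutrophil list stood at 141 to 156 in wild-type and 151 to 165 in SRC-2 null liver, with none of 4 tested markers called. The endothelial list stood at 944 to 1012 against 921 to 1071, with 1 of 7 higher. That gene, Flt1 (limma adjusted p = 0.0431), no longer passed with any of the 6 arrays removed. The stellate and matrix list stood at 2017 to 2111 against 2094 to 2250, with 1 of 8 higher. In that list 1 further gene was lower at an unadjusted limma p under 0.05. Other cell types moved with the genotype. Of 12 macrophage markers 11 fell, with a summed signal of 4781 to 5004 in wild-type and 2219 to 2432 in SRC-2 null liver. Of 5 tested B and plasma cell markers 3 fell, from a sum of 1722 to 2120 to a sum of 225 to 274. Of 5 tested T and NK cell markers 2 fell, from a sum of 228 to 240 to a sum of 161 to 184. The summed signal also did not overlap for the exocrine pancreas list (151 to 160 in wild-type against 110.2 to 130.1, 0 of 2 tested markers called in limma and 1 lower at an unadjusted p under 0.05), the cholangiocyte list (122 to 138 against 154 to 161, 1 of 4 higher and 1 lower) and the red cell list (216 to 230.0 against 301 to 359, 1 of 2 higher). Of the adipocyte list, 4 markers had a probe set of their own, and their sum was 120 to 154 in wild-type and 350.0 to 400.3 in SRC-2 null liver; Fabp4 rose, Retn was not called, and the defining genes Adipoq and Lep were below the filter. Of the intestinal list, Fabp2 rose (limma adjusted p = 0.034, up to 0.135 with an array removed, and under 0.05 in 1 of the 6 such fits), Cdx2 was not called, and Vil1, Lct and Alpi were below the filter, with a summed signal of 449 to 463 against 551 to 624. Of 6 kidney markers, 5 were below the filter and Aqp2 was not called. The part of these cell types in the differences of Ugt2b38 and Ugt2b1 was not tested.

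The genes whose values followed those of Ugt2b38 most closely over the 6 arrays were Nupl2 (Pearson's r = 0.998), Flywch1 (0.996) and Acad10 (0.995), as a description of 6 arrays that fall into the 2 genotypes. None of these was called (limma adjusted p = 0.0524, 0.134 and 0.0553), with log2 fold changes of 0.34, 0.26 and 0.34. In all, 160 tested genes had an r over 0.95 with Ugt2b38, so the order among them carries little weight.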

How the data were processed

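RNA abundance came from the authors' deposited table of log2 expression values, 1 column per array, and per the submitters' processing notes these are values of the RMA method (robust multi-array average). Not given in the sources used here are its version, the chip description and any genome build. RMA corrects background, equalises the arrays' distributions and summarises each probe set, which compresses folds at the low end. No pair of arrays held identical values, and the number of arrays limits the precision. Symbols came from the platform's annotation: of 45101 probe sets, 34945 carried 1 symbol, 932 carried several, 9160 had none listed and 64 were control probe sets. By gene number, 34741 of the 34945 were found in a table of GRCm38.p6 genes. Each gene was represented by its brightest probe set (mean of the 6 arrays), and genes with a mean at or above 4.21 were tested with limma 3.58.1 in R 4.3.3 (lmFit, eBayes, two-sided, genotype as the only term, Benjamini-Hochberg). The same fit was run over all probe sets of a single symbol and over all probe sets. The procedure was tested on simulated data.

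Arrays of the same replicate number correlated at 0.18, 0.203 and 0.516 in their deviations from the group means, all above 0.1, and the fit with the number as a block is an alternative. Unlike numbers 1 and 2 correlated as well (0.206 and 0.166), so replicates 1 and 2 show no pairing of their own, and replicate 3 alone stands apart; the labels state no pairing. Further alternatives were the mean of all probe sets, other filters, median-centred arrays, eBayes with trend and robust, replicate 3 as a batch, replicates 1 and 2 alone, and each array left out.

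All 9 members are named with every probe set, as are the other UGT genes measured, Ncoa2, up to 4 called genes of each list by smallest p (or the 2 with the smallest p where none was called), and the 3 genes most like Ugt2b38. Further genes named for their role in the pathway, as neighbours or as cell type markers were chosen after their values were seen. The members and lists were chosen with earlier results of these data known. Promoters were aligned with Biopython 1.88 (match 2, mismatch -1, gap opening -5, extension -0.5). Python 3.11.15 and matplotlib 3.10.9 made the figures.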

Additional observations from a re-analysis of the deposited data

How the results depend on the processing

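The count of UGT genes called, 2 of 8, was the same with the mean of all probe sets, no filter, median-centred arrays, eBayes with trend and robust, and replicate 3 as a batch term. It was 1 with the filter at the 60th percentile, where Ugt2b38 is not tested, and 1 with replicates 1 and 2 only, where the adjusted p of Ugt2b1 was 0.0728. The range over single arrays left out was 1 to 2. The count of UGT probe sets called, 2 of 9, was 1 with no filter on dim probe sets, with the filter at the 60th percentile, with replicates 1 and 2 only and whichever array was left out, and 2 when probe sets of several symbols were tested too, an alternative chosen after seeing the data. Ugt2b1 was the one lost with no filter (adjusted p = 0.0655). With the replicate block the counts were 2 and 2, and the adjusted p was 0.0016 for Ugt2b38 and 0.0201 for Ugt2b1; no call of a UGT gene changed. In the other lists the block added a lower call each to the sulfotransferase and female-biased genes and changed the count of no other pathway or sex-biased list. Over all genes, 556 were called in the fit reported, 832 with the replicate block (307 higher and 525 lower against 184 and 372), 982 with replicate 3 as a batch term, 329 with replicates 1 and 2 only, and 275 to 438 with an array left out. The log2 fold change of Ugt2b35, by gene and by probe set, ran from -0.0083 (without SRC-2 null replicate 1, the lone change of sign) to 0.0983 with an array left out, around 0.04. Values near the low end of the arrays limit what can be said of Ugt2b38 in wild-type liver and of Ugt2b37.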
